A study of Mus musculus with 4 samples.

Results

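Transcripts of the hypoxia-inducible factor (HIF) pathway were followed in group 2 innate lymphoid cells (ILC2s) of the mouse colon through 10 genes. These were the oxygen-regulated subunits Hif1a and Epas1, the prolyl hydroxylases Egln1, Egln2 and Egln3, the ubiquitin ligase subunit Vhl, and the hypoxia targets Bnip3, Bnip3l, Vegfa and Fam162a. The genes came from a named list that left out glycolysis genes, and each matched 1 of the 55487 Ensembl gene IDs of the count table by its symbol. All 10 passed the filter on low counts and were among the 19194 genes tested. The FK866 group (n = 2 libraries) held ILC2s exposed for 16 h to FK866, an inhibitor of nicotinamide phosphoribosyltransferase (NAMPT), the enzyme that salvages nicotinamide into NAD+. The control group (n = 2 libraries) held ILC2s labelled only as control. Cells of both groups were sorted from the gut and cultured with IL-33 and IL-25, which activate ILC2s, together with IL-7 and IL-2, so both were activated cells outside the tissue. The strain, sex and age of the mice, the oxygen level of the culture and any vehicle given to the controls are not stated in the sources used here. Whether the libraries came from separate animals or cultures is not labelled either, and p-values therefore cover just the spread among 4 libraries, part of which may be technical.

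When oxygen is present, prolyl hydroxylases modify the HIF-α proteins, the VHL protein binds the hydroxylated form, and its ubiquitin ligase marks it for degradation. When oxygen is low, HIF-α escapes this step, pairs with ARNT and binds short response elements near its target genes. The pathway is therefore set mainly at the level of protein stability, and transcript levels describe its parts and its targets rather than HIF activity itself. HIF targets serve angiogenesis, mitophagy and metabolism, and Egln3 is itself a target that feeds back on the pathway.

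Library totals ranged from 27617750 to 37841233 gene counts. FK866 replicate 2 stood apart with 22461 gene IDs at 10 or more counts, against 17152 to 18667 in the other libraries. The 12 ILC2 markers examined were all tested and summed to 5218 and 4183 CPM in FK866 libraries, against 5100 and 5018 CPM in controls. Gata3 was the most abundant over the 4 libraries as a whole. The median log2 fold change of the 12 was -0.37, beside 0.03 over all tested genes, with 8 negative and 4 positive. Of these markers Rora, a transcription factor gene of ILC2 development, was called higher (log2 1.70). Its mean of 1156 CPM in FK866 libraries, against 356 CPM in controls, is part of the sums. The regulator Id2 (-0.89) and the cytokine gene Il13 (-1.49) were called lower. CPM is the count of a gene relative to the total of its library, scaled by edgeR's TMM factors. Of 7 lists of markers of other cell types, 5 had sums that did not overlap between the groups, and those of ILC3s and of mast cells and basophils overlapped. Among all tested genes 57.7% were separated in this way, so this count is no result about such cells. The 5 ILC3 markers, led by Il22, summed to 230.2 and 87.4 CPM in FK866 libraries and 273.7 and 159.8 CPM in controls, and the 5 of mast cells and basophils, led by Fcer1a, to at most 1.38 CPM in any library. Of the ILC3 markers, the receptor gene Il23r was called higher (log2 2.05, edgeR adjusted p = 0.0172), a call lost without FK866 replicate 1 (1.54, adjusted p = 0.0906). The 7 macrophage markers summed to 13.9 and 11.4 CPM in FK866 libraries and 4.60 and 5.61 CPM in controls. Of these, 1 of 4 tested was called higher, the most abundant one, Cd68. Of the same 4, 3 lay higher in both FK866 libraries than in both controls, beside 28.4% of all tested genes. The median log2 fold change of the 4 was 1.59, with 3 positive and 1 negative. Itgam and C1qa, at or below 0.0920 CPM in every library, were not tested. The 5 epithelial markers summed to 27.3 and 39.9 CPM in FK866 libraries and 42.3 and 55.1 CPM in controls, almost all of it Epcam, with Krt8 at 0 counts. The 4 B cell markers summed to 19.2 and 25.2 CPM in FK866 libraries and 31.6 and 34.8 CPM in controls, with Cd79b the most abundant. The 6 stromal and endothelial markers summed to 228.8 and 192.0 CPM in FK866 libraries and 183.2 and 144.7 CPM in controls, nearly all of it Pecam1. The 6 T cell markers summed to 21.2 and 20.6 CPM in FK866 libraries and 19.8 and 19.8 CPM in controls, with Cd3g the most abundant. None of the epithelial, B cell, T cell, or stromal and endothelial markers passed the test. The part of such cells in the results below was not tested.

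With FK866, 2 of the 10 genes fell, Fam162a and Egln2, and 0 rose (quasi-likelihood F test of edgeR, with an adjusted p under 0.05 over all genes tested, after Benjamini and Hochberg). Among all tested genes 13.2% were called, 7.89% lower and 5.31% higher, so the count of members called is close to the background and is no result about the group. At an unadjusted p under 0.05, 3 members were higher (Hif1a, Egln3 and Vegfa), beside 12.1% of all tested genes, and 2 lower, beside 15.9%. DESeq2 called 1 member higher, Hif1a, beside 11.9% of the 12496 genes to which it gave an adjusted p. The 2 FK866 libraries did not overlap the 2 controls for 8 of the 10 genes, 5 above and 3 below, but 57.7% of all tested genes were separated in this way, 28.4% with FK866 above and 29.3% with FK866 below. The median log2 fold change of the members was 0.08, beside 0.03 over all tested genes. Over all genes 1020 were called higher and 1514 lower, a split that became 1746 higher and 1607 lower under a stricter filter on low counts and 1647 higher and 1470 lower once the trend on transcript length and GC content had been removed.

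**Figure D1:**
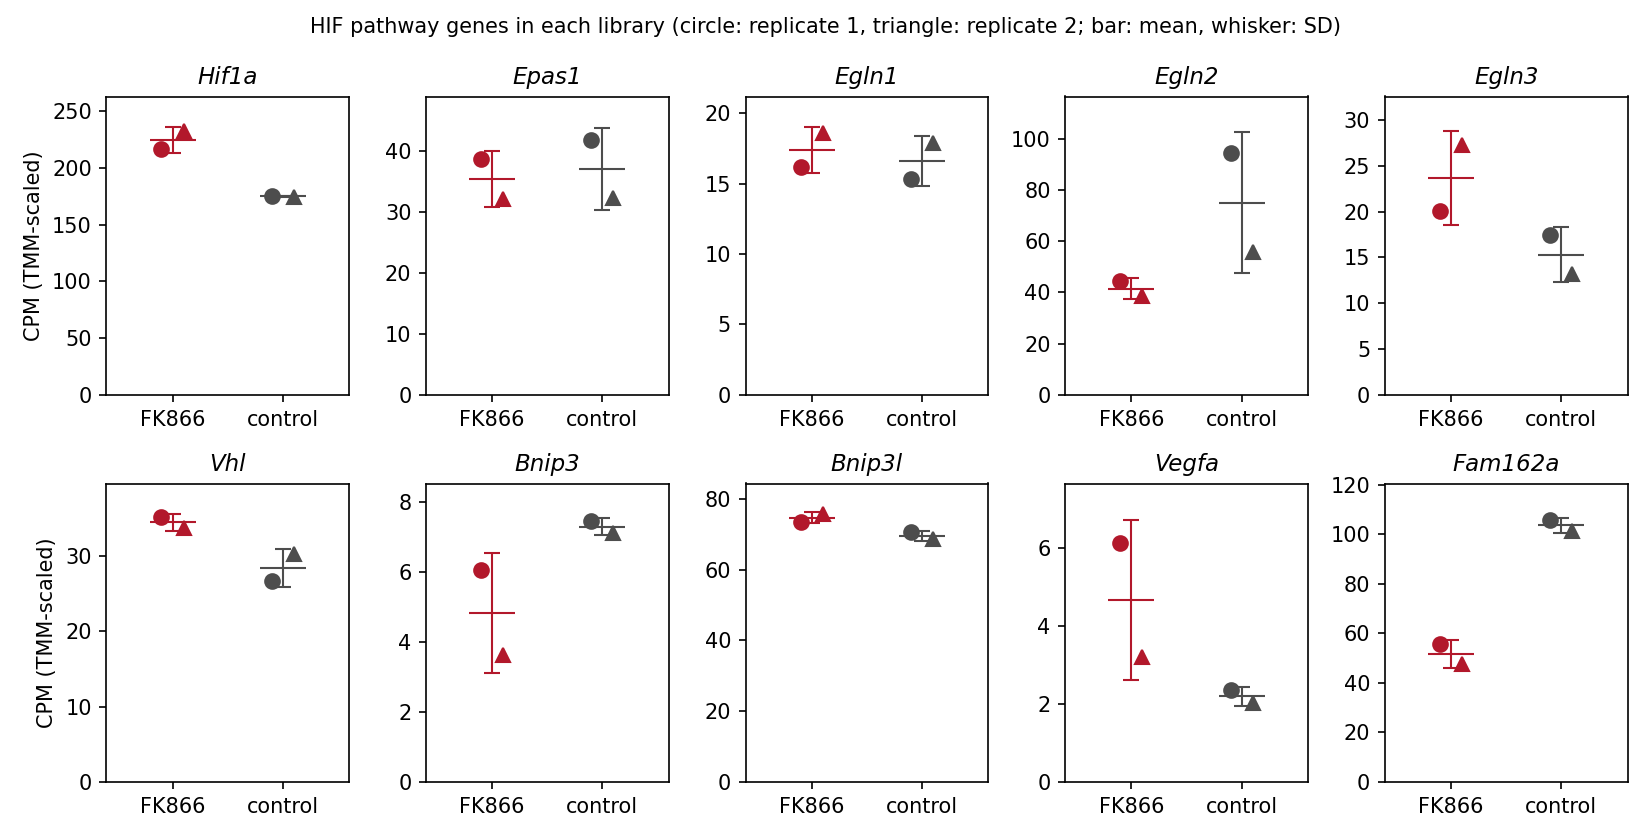
CPM of each of the 10 genes in each library, with FK866 libraries (red) left of controls (grey), circles for replicate 1 and triangles for replicate 2, and the mean and SD of the 2 libraries of each group as a bar with a whisker. Fam162a and Egln2 lie lower in both FK866 libraries than in both controls, and the groups overlap only for Epas1 and Egln1.

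Levels of different genes were set side by side per kilobase of annotated exon, and the members spanned a wide range. The divisor is the union of all annotated exons of a gene, which can far exceed a typical transcript. It was 3859 bases for Bnip3l, with a median transcript of 540, but 3594 bases for Egln1, with a median of 3594. The order of the genes and the shares given below therefore depend on this annotation, and other lengths were not tried. In FK866 libraries the order was Fam162a with 60.7 ± 6.55 CPM per kb (SD, n = 2), Hif1a with 38.1 ± 1.91, Bnip3l with 19.4 ± 0.410, Egln2 with 14.8 ± 1.47, Vhl with 11.5 ± 0.365, Egln3 with 8.88 ± 1.92, Epas1 with 6.33 ± 0.826, Egln1 with 4.84 ± 0.463, Bnip3 with 2.13 ± 0.758 and Vegfa with 1.09 ± 0.481 CPM per kb. No neighbours in that order overlapped between their libraries. In controls Fam162a led with 122 ± 3.47 CPM per kb, followed by Hif1a with 29.7 ± 0.0226 and Egln2 with 26.8 ± 9.83, whose libraries overlapped. Egln3 stood lower there, at 5.74 ± 1.13 CPM per kb, and could not be placed apart from Epas1 (6.63 ± 1.21) above it or Egln1 (4.62 ± 0.497) below it. Vegfa was the lowest in controls too, at 0.512 ± 0.0565 CPM per kb.

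Hif1a (ENSMUSG00000021109, mm10 chromosome 12, 73901375 to 73947530, plus strand) encodes HIF-1α, the subunit known to drive the glycolytic response to hypoxia. It had 216.9 and 232.8 CPM in FK866 libraries, against 175.0 and 174.8 CPM in controls. Both FK866 libraries lay above both controls, whose values were nearly equal. This difference, 0.36 ± 0.13 (SE) on the log2 scale, missed the threshold (edgeR adjusted p = 0.0931). Hif1a was called under 4 of 12 alternatives, with a log2 fold change between 0.26 and 0.46 over all of them. It passed with DESeq2 (adjusted p = 0.044) and, in edgeR, under the stricter filter (0.0212). Removal of the length and GC trend (0.0409) and a block on the replicate number (0.0104) also gave a call. It did not pass in edgeR with other scalings (adjusted p = 0.0525 to 0.0832) or with no filter on low counts (0.639). Nor was it called with any library left out (log2 0.26 to 0.36). Of its exon bases, 5.6% lie under the opposite-strand gene Gm15283, which had 50 to 87 counts in a library, against 5699 to 7916 for Hif1a. How reads on the shared bases were assigned is not stated, and their part in the Hif1a counts was not tested.

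Epas1 (ENSMUSG00000024140, chromosome 17, 86753700 to 86833410, plus strand) encodes HIF-2α, which shares its partner and hydroxylases with HIF-1α and has its own set of targets. It had 38.7 and 32.1 CPM in FK866 libraries, against 41.8 and 32.3 CPM in controls. The groups overlapped, and replicate 1 was the higher library in each. On the log2 scale the difference was -0.07 ± 0.19 (SE, edgeR adjusted p = 0.875), and its sign turned with the stricter filter (0.03). Epas1 made up 15.8% and 12.7% of the summed per-kilobase level of both HIF-α genes in FK866 libraries, against 20.1% and 16.3% in controls, so the nearest libraries of the groups were closer to each other than the libraries within either group.

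The 3 prolyl hydroxylase genes did not move alike. Egln1 (ENSMUSG00000031987, chromosome 8, 124908587 to 124949324, minus strand) encodes PHD2, known as the main oxygen sensor of the pathway. It had 16.2 and 18.6 CPM in FK866 libraries, against 15.4 and 17.9 CPM in controls. The groups overlapped, with a log2 fold change of 0.07 ± 0.21 (SE, edgeR adjusted p = 0.888).

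Egln2 (ENSMUSG00000058709, chromosome 7, 27158658 to 27166802, minus strand) encodes PHD1, a nuclear hydroxylase of the same family. It fell to 44.4 and 38.6 CPM in FK866 libraries, against 94.6 and 55.6 CPM in controls. Control replicate 1 was far above control replicate 2, and both FK866 libraries were below both. The log2 fold change was -0.86 ± 0.24 (SE, edgeR adjusted p = 0.0466), close to the threshold. Without control replicate 1 it was -0.53 (adjusted p = 0.0421). Leaving out FK866 replicate 2 ended the call (-0.74, adjusted p = 0.0714), as did DESeq2-type size factors in edgeR (-0.83, adjusted p = 0.0643).

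Egln3 (ENSMUSG00000035105, chromosome 12, 54178981 to 54203860, minus strand) encodes PHD3, whose gene is a well-known HIF target. It had 20.0 and 27.3 CPM in FK866 libraries, against 17.4 and 13.2 CPM in controls. Both FK866 libraries were above both controls, with a gap between the nearest libraries smaller than the spread inside either group. Egln3 differed by 0.63 ± 0.24 (SE) on the log2 scale and did not pass (edgeR adjusted p = 0.119). It was 0.41 without FK866 replicate 2 and 0.75 without control replicate 1, where it passed (adjusted p = 0.0336), and it passed under the stricter filter (0.74, adjusted p = 0.0477).

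Per kilobase, Egln2 held 56.9% and 47.2% of the summed hydroxylase transcripts in FK866 libraries, against 75.8% and 66.7% in controls. Egln3 held 27.0% and 35.1% in FK866 libraries, against 14.7% and 16.6% in controls. Egln1 held 16.2% and 17.7% in FK866 libraries, against 9.58% and 16.7% in controls, and its groups overlapped. The shares of Egln2 and Egln3 were separated between the groups, and 2 libraries against 2 allow no exact test that could pass. Shares of 1 sum are tied, as a lower share of Egln2 leaves a larger one for the other genes, so these are not separate results. The summed level was 28.5 ± 0.919 CPM per kb in FK866 libraries and 37.2 ± 10.5 in controls (SD, n = 2 each). Control replicate 1 alone lay well above the rest at 44.6 CPM per kb, while control replicate 2 at 29.8 was next to the FK866 libraries at 27.9 and 29.2. In bulk RNA, a lower level of a transcript per cell and fewer cells that express it cannot be told apart.

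**Figure D2:**
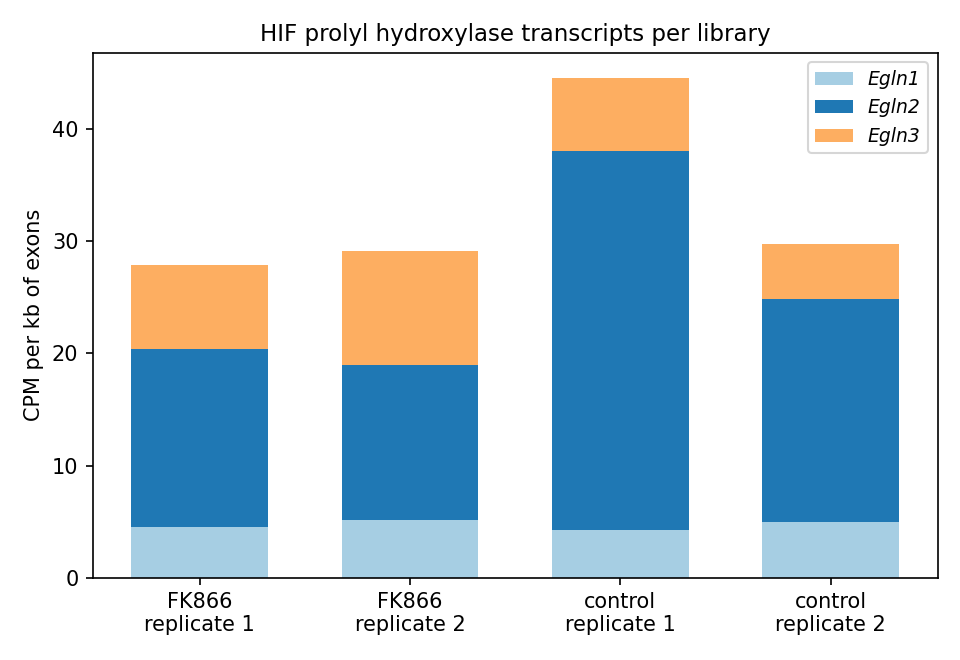
Stacked CPM per kilobase of exon of Egln1, Egln2 and Egln3 in each library, FK866 libraries left of controls. The Egln2 segment is smaller and the Egln3 segment larger in both FK866 libraries, and control replicate 1 has the tallest stack at 44.6 CPM per kb.

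The windows around the start sites of Egln2, the hydroxylase gene that fell, and of Egln3, the one that is a classic HIF target, are shown for the letters of the hypoxia response element. Each is the RefSeq window (GRCm38.p6) from 250 bases before to 50 bases after the start, at chr7:27166753-27167052 and chr12:54203825-54204124 on the minus strand, with ACGTG or GCGTG on either strand in capitals. Where both strands read ACGTG at 1 place, the capitals run together as CACGTG, the letters of an E-box.
Egln2: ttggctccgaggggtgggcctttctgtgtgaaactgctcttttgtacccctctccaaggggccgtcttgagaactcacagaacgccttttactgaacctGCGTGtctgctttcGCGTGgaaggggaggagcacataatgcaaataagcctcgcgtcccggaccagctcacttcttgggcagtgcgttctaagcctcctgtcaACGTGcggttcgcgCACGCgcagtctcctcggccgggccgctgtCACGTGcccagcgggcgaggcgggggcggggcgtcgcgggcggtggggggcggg
Egln3: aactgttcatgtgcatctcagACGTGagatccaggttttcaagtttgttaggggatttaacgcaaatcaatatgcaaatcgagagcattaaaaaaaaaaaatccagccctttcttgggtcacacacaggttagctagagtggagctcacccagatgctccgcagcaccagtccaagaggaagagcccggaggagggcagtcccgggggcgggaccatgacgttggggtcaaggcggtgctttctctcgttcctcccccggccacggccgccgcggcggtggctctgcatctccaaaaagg
The Egln2 window held 3 matches to ACGTG and 3 to GCGTG, with 1 CACGTG among them, and the Egln3 window held 1 match to ACGTG. Of 32851 RefSeq windows of this length, 19.6% held ACGTG, 32.4% held GCGTG and 43.8% held either. A second RefSeq window of Egln2, at another start, held 1 match to GCGTG.

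Vhl (ENSMUSG00000033933, chromosome 6, 113623959 to 113631633, plus strand), which encodes the protein that recognises hydroxylated HIF-α, had 35.2 and 33.6 CPM in FK866 libraries, against 26.6 and 30.2 CPM in controls. Both FK866 libraries were above both controls by a small margin. Its log2 fold change of 0.28 ± 0.17 (SE) did not pass in any setting tried (edgeR adjusted p = 0.337, and 0.0748 to 0.895 over the alternatives).

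Bnip3 and Bnip3l encode related receptors in the outer mitochondrial membrane that recruit the autophagy machinery, and both are known HIF targets. Bnip3 (ENSMUSG00000078566, chromosome 7, 138890836 to 138909519, minus strand) had 6.04 and 3.62 CPM in FK866 libraries, against 7.46 and 7.12 CPM in controls, from 123 to 271 counts a library. The FK866 libraries were both lower and far apart, and FK866 replicate 2 was the lowest of the 4. For Bnip3 the log2 fold change was -0.60 ± 0.33 (SE, edgeR adjusted p = 0.278), between -1.11 without FK866 replicate 1 and -0.25 without FK866 replicate 2. Of its exon bases, 22.3% lie under Gm45507 on the other strand, which had 0 counts in every library.

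Bnip3l (ENSMUSG00000022051, chromosome 14, 66985239 to 67008877, minus strand), also called Nix, was the more abundant of the pair. It had 73.6 and 75.8 CPM in FK866 libraries, against 70.7 and 68.6 CPM in controls. The libraries of each group were close together and the groups did not overlap, yet the log2 fold change of 0.10 ± 0.14 (SE) did not pass (edgeR adjusted p = 0.697). Per kilobase, Bnip3 held 12.3% and 7.52% of the summed level of the pair in FK866 libraries, against 15.2% and 15.0% in controls.

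Vegfa (ENSMUSG00000023951, chromosome 17, 46016993 to 46032369, minus strand), the angiogenic growth factor and a textbook HIF target, was scarce. It had 165 and 109 counts in FK866 libraries, or 6.12 and 3.21 CPM, against 86 and 66 counts in controls, or 2.37 and 2.02 CPM. Both FK866 libraries were higher, and the gap between them exceeded that between FK866 replicate 2 and the controls. The log2 fold change of 1.08 ± 0.42 (SE), numerically the highest of the 10, did not pass (edgeR adjusted p = 0.127). It was 0.45 without FK866 replicate 1 and 1.50 without FK866 replicate 2, where it passed (adjusted p = 0.0274).

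Fam162a (ENSMUSG00000003955, chromosome 16, 36043761 to 36071594, minus strand) encodes a mitochondrial protein also known as HGTD-P, which is induced by HIF-1α in hypoxia and has been linked to cell death. It fell to 55.5 and 47.6 CPM in FK866 libraries, against 105.6 and 101.4 CPM in controls. The FK866 libraries were closer to each other than to any control and lay far below both. The log2 fold change was -1.01 ± 0.15 (SE, edgeR adjusted p = 0.00489). It passed under all 12 alternatives, between -1.22 without FK866 replicate 1 and -0.86 after removal of the length and GC trend, with adjusted p-values up to 0.0145. Of its exon bases, 19.8% lie under Wdr5b on the other strand. Wdr5b had 169 to 287 counts a library, against 1497 to 3837 for Fam162a, and did not pass (log2 -0.18, edgeR adjusted p = 0.748).

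**Figure D3:**
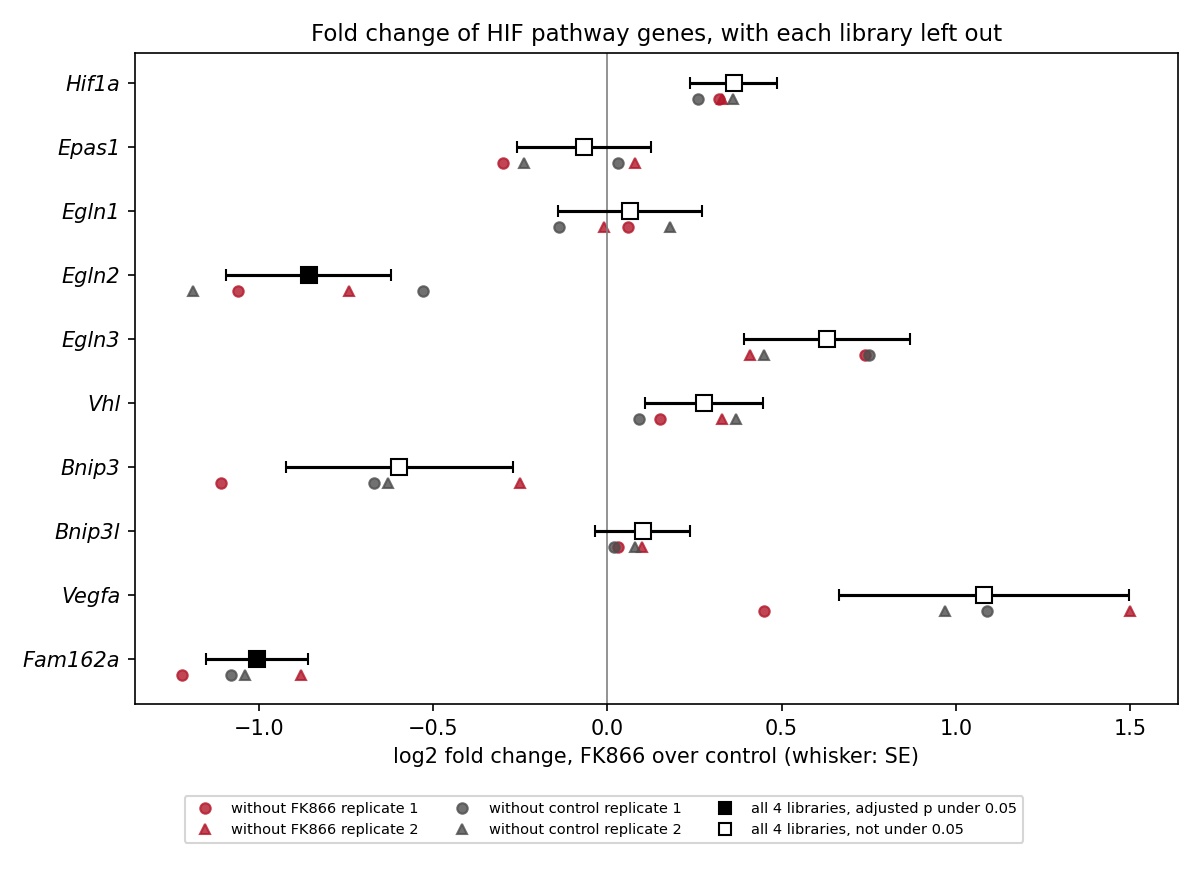
Log2 fold change of each gene, FK866 over control, from all 4 libraries (squares, filled where the adjusted p is under 0.05, whiskers for the SE) and with each library left out (small symbols below). Fam162a stays between -1.22 and -0.88 and Egln2 between -1.19 and -0.53 with a library left out, while Vegfa moves between 0.45 and 1.50.

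The window around the start of Fam162a, the member with the smallest adjusted p, is shown in the same way (RefSeq GRCm38.p6, chr16:36071512-36071811, minus strand).
Fam162a: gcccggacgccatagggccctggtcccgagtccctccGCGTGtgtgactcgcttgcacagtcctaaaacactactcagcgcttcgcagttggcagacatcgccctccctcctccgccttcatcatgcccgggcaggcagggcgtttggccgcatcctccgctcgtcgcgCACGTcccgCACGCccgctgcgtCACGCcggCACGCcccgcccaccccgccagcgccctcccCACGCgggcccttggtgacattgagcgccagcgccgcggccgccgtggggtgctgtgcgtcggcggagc
It held 1 match to ACGTG and 5 to GCGTG, most of them clustered in the 100 bases before the start. RefSeq windows were found for 8 of the 10 members, with Epas1 and Bnip3l not matched, and 7 of the 8 genes had at least 1 match in a window. Bnip3 had 2 matches to ACGTG, both within 1 CACGTG, and 3 to GCGTG. Hif1a had 3 to ACGTG, 2 of them within 1 CACGTG, and Egln1 had 1 match to each motif. The Vhl window and the first of the Vegfa windows had 0, and the second Vegfa window had 1 of each. Such letters were held by the genes that fell (Fam162a and Egln2) and by others that did not pass, higher (Hif1a and Egln3) or lower (Bnip3). With a match in 7 of the 8 genes, this comparison could not have tied a match to a direction. Counted by window, 8 of the members' 10 windows held a match, beside 43.8% of all RefSeq windows. Egln2 and Vegfa gave 2 windows each, and the RefSeq windows were not matched to those of the members for GC content. Whether the members hold more such letters than like windows was not tested.

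Beyond the 10 genes, 21 other regulators of HIF were examined, and all were tested. Of these, 5 fell and 1 rose, against 7.89% and 5.31% of all tested genes, and the list median was -0.06. As the list was chosen with earlier results of these data known, these counts are a description only. Cited4, which encodes a CBP/p300-binding protein of the CITED family, fell to 1.45 and 2.97 CPM in FK866 libraries, against 17.0 and 13.9 CPM in controls (log2 -2.79 ± 0.36, SE, edgeR adjusted p = 0.00333). Its relative Cited2, which is itself a HIF target and competes with HIF-α for p300, had a log2 fold change of 0.04 (edgeR adjusted p = 0.926) and was named after its value was seen. Elongin B (Elob, log2 -0.56), elongin C (Eloc, -0.76) and Rbx1 (-0.49), partners of VHL in its ubiquitin ligase, also fell, as did the chaperone gene Hsp90aa1 (-0.83), whose product stabilises HIF-1α. Elob had 203.4 and 173.8 CPM in FK866 libraries and 277.6 and 280.5 CPM in controls. The gene that rose, Crebbp, encodes the coactivator CBP and had 137.1 and 129.5 CPM in FK866 libraries, against 95.0 and 94.7 CPM in controls (log2 0.49, edgeR adjusted p = 0.0389). Arnt, the shared partner of the HIF-α subunits, was outside the naming rule and did not pass (log2 0.59 ± 0.17, SE, edgeR adjusted p = 0.0512). The calls of Elob and Eloc were lost without FK866 replicate 2 (edgeR adjusted p = 0.269 and 0.106), and that of Elob also after removal of the length and GC trend (-0.32, adjusted p = 0.077) and with no filter on low counts (0.0673). Crebbp lost its call without control replicate 1, without FK866 replicate 1, without FK866 replicate 2 and with no filter (edgeR adjusted p = 0.0952, 0.381, 0.128 and 0.301). Rbx1 lost its call with DESeq2-type size factors, with no filter and without FK866 replicate 2 (edgeR adjusted p = 0.057, 0.144 and 0.327).

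Of 40 other known HIF targets, again without glycolysis genes, 37 were tested. Of these, 9 rose and 3 fell, against 5.31% and 7.89% of all tested genes, and the list median was 0.24 beside 0.03 over all genes. The list was chosen with earlier results of these data known, so these counts are a description and no result about HIF targets as a set. Those that rose were Cxcr4, Nt5e, Mxi1, Ccng2, P4ha1, Ero1a, Bhlhe40, Hmox1 and Kdm4c, and those that fell were Higd1a, Car12 and Jmjd6. The other 25 did not pass. Over all 37, the log2 fold change was positive for 23 and negative for 14. Cxcr4, the chemokine receptor gene, had 47.5 and 41.7 CPM in FK866 libraries and 1.21 and 0.767 CPM in controls. Nt5e, the gene of the adenosine-forming enzyme CD73, rose to 34.3 and 42.3 CPM in FK866 libraries, against 14.1 and 15.9 CPM in controls (log2 1.36 ± 0.19, SE, edgeR adjusted p = 0.00455). P4ha1, a subunit of collagen prolyl hydroxylase, rose to 49.4 and 49.9 CPM in FK866 libraries, against 26.5 and 22.4 CPM in controls (log2 1.02). On the log2 scale, Mxi1, which encodes a MYC antagonist, rose by 1.59 and the cyclin gene Ccng2 by 1.47. Higd1a, which encodes a mitochondrial protein induced by hypoxia, fell to 65.1 and 59.2 CPM in FK866 libraries, against 104.5 and 122.5 CPM in controls (log2 -0.87, edgeR adjusted p = 0.00809). For Higd1a, 22.5% of the exon bases lie under a gene on the other strand. Kdm4c lost its call under 5 of 12 alternatives, Ero1a and Jmjd6 under 2 each, Bhlhe40 without FK866 replicate 1 (log2 0.45, edgeR adjusted p = 0.182) and Hmox1 with DESeq2 (adjusted p = 0.0865). The log2 fold change of Hmox1 lay between 1.06 without control replicate 2 and 2.51 without control replicate 1. Several of these genes are also known to answer to other factors than HIF.

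**Figure D4:**
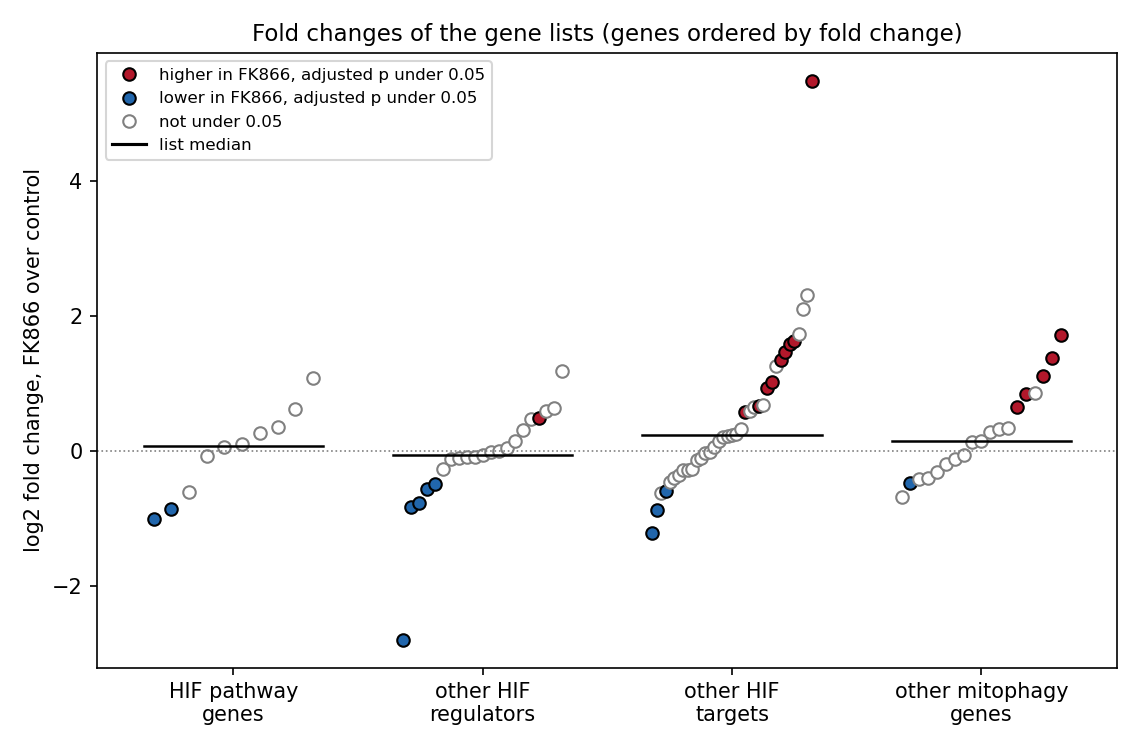
Log2 fold change, FK866 over control, of each tested gene in the 10 HIF pathway genes, 21 other HIF regulators, 37 other HIF targets and 19 other mitophagy genes, ordered within each list, with genes called higher in red, called lower in blue and others open, and the list median as a line. Calls lie on both sides of 0 in every list except the HIF pathway genes, where both are lower, and Cxcr4 is the point at the top.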

How the data were processed

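RNA was sequenced from 4 libraries of colon ILC2s, 2 with FK866 and 2 controls, grouped by their titles. Per the labels' protocols, RNA was extracted by TRIzol, and full-length cDNA came from a SMART-Seq HT reaction and paired-end libraries from Nextera XT, neither of which marks the strand. The deposited values are raw read counts per Ensembl gene. Per the submitters' processing notes, the tools were cutadapt 1.9 and HISAT2 2.2.1 and the build was mm10, while the counting program, its annotation and its strand setting are not stated in the sources used here. Without strand, reads of overlapping genes cannot be told apart.

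Symbols, positions, exon lengths and exon overlaps came from GENCODE M21 (mm10), and 55227 of 55487 IDs had a symbol. Counts were filtered with filterByExpr (minimum count 10, minimum total 15), scaled by TMM on the filtered library sizes and tested in edgeR 4.0.16 (R 4.3.3) by its two-sided quasi-likelihood F test, with treatment as the only term and Benjamini-Hochberg adjustment over 19194 genes. The SE was obtained by dividing the absolute log2 fold change by √F. Replicates were distinct libraries, since chi-square over degrees of freedom was 19.0 for the FK866 pair and 35.8 for the control pair, beyond sampling noise. Alternatives were other scalings, other filters, DESeq2 1.42.0, a block on the replicate number, each library left out, and removal of the trend on transcript length and GC content. On simulated counts with known changes over 19194 genes, the test called 67 of the 100 genes given a 2-fold change and 100 of the 100 given a 4-fold change, with 14 false among 181 calls. The changed genes were drawn only from those above a floor of mean expression, so recovery of scarce genes such as Vegfa was not tested. They were also far fewer than the 2534 genes called in the data.

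The members and the lists were chosen with earlier results of these data known. The genes named are all 10 members and, from the lists of other regulators, other targets and mitophagy genes, the 5 called genes with the smallest adjusted p and at least 1 of each direction called. From each marker list the rule took the most abundant gene and those at 0. Nearest profiles were taken for the called member with the smallest adjusted p. Other names were chosen after their values were seen. These are Cited2, Arnt, Rbx1, Ero1a, Bhlhe40, Hmox1, Kdm4c, Car12, Jmjd6, Rora, Id2, Il13, Il23r, Itgam and C1qa.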

Additional observations from a re-analysis of the deposited data

How the results depend on the processing

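Among the members, Fam162a was called lower under all 12 alternatives and Egln2 under 10 of 12, while Epas1, Egln1, Vhl, Bnip3 and Bnip3l were called under none. The count of members called lower was 1 with DESeq2-type size factors. The count called higher, 0 with all libraries, was 2 with the stricter filter (CPM above 5 in at least 2 libraries, where Vegfa was not tested), 1 with DESeq2 and 1 after trend removal. With a library left out it lay between 0 and 1, and the count called lower between 1 and 2. Signs turned only for Epas1 (0.03 under the stricter filter, and -0.30 to 0.08 with a library left out) and Egln1 (-0.14 to 0.18 with a library left out). Over all genes, the stricter filter called 1746 higher and trend removal 1647, and with a library left out 661 to 1457 were called higher and 828 to 2462 lower. Leaving out control replicate 1 or FK866 replicate 1 shifted the median fold change of all genes by -0.11. Of the 2534 calls, 1412 were kept without FK866 replicate 2 and 1857 without FK866 replicate 1.

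Other HIF regulators called higher numbered 3 with library totals, upper quartile, the stricter filter, DESeq2 or trend removal, 0 with no filter, and 0 to 3 with a library left out. Those called lower numbered 3 with no filter and 2 to 5 with a library left out. Other HIF targets called lower numbered 2 to 6 with a library left out. Mitophagy genes called higher numbered 3 to 5, and those called lower 0 to 2, with a library left out, and those called lower were 0 with no filter and 0 with trend removal. The cause of these moves was not tested.

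The groups share replicate numbers, but no label says that a number marks a shared animal or day, and 2 pairs cannot settle it. The deviations of same-numbered libraries from their group means correlated at 0.372 across 9701 genes, which are not independent. With the replicate number as a block, 2197 genes were called higher and 3059 lower, and of the members 3 were higher (Hif1a, Egln3 and Vegfa) and 2 lower. Other regulators called higher were then 4, other targets 14 higher and 6 lower, and mitophagy genes called lower 3. Vegfa and Bnip3 had the fewest counts of the members, 66 to 271 a library, and SEs of 0.42 and 0.33, and the part of depth in those SEs was not tested.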

Other observations

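Bnip3 and Bnip3l act in mitophagy, the removal of mitochondria by autophagy. A list of 19 other genes of this process or of autophagy more widely, here called mitophagy genes, was examined. Of these, 5 rose, 1 fell and 13 did not pass, against 5.31% higher and 7.89% lower among all tested genes. The list median was 0.15 beside 0.03 over all genes. This list too was chosen with earlier results of these data known, so its counts are a description only. The autophagy receptor gene Sqstm1 rose to 985.3 and 789.0 CPM in FK866 libraries, against 434.7 and 382.5 CPM in controls (log2 1.12 ± 0.15, SE, edgeR adjusted p = 0.00333). The related receptor genes Calcoco1 (log2 1.38) and Tax1bp1 (0.65), the initiating kinase gene Ulk1 (0.85) and Gabarapl1 (1.72), which encodes an ATG8 family protein that binds such receptors, also rose. Prohibitin 2 (Phb2), an inner membrane protein that can act as a mitophagy receptor, fell (log2 -0.48, edgeR adjusted p = 0.033). Without FK866 replicate 1 the calls of Ulk1 (edgeR adjusted p = 0.205) and Tax1bp1 (0.0702) were lost, and without FK866 replicate 2 that of Phb2 (0.224). With no filter Tax1bp1 (0.071) and Phb2 (0.166) lost theirs, and Phb2 did so after removal of the length and GC trend (0.0936). Gabarapl1 was 0.96 on the log2 scale without FK866 replicate 1 and was not called by DESeq2 (adjusted p = 0.0546). For Gabarapl1, 28.3% of exon bases are shared with an opposite-strand gene, and the same holds for 17.3% of those of Sqstm1.

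Among 8358 protein-coding genes of at least moderate expression, the profiles most like that of Fam162a over the 4 libraries were those of Ints5, Exosc7 and Acy1. Their root mean square differences from it in log2 CPM, after each gene was centred on its own mean, were 0.0252, 0.0263 and 0.0265. Exosc7, for example, had 61.2 and 51.8 CPM in FK866 libraries and 116.7 and 115.9 CPM in controls. With 4 libraries such likeness is a description only.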
